A study of Mus musculus with 6 samples.

Results

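A set of 10 genes that mark the step from proliferating cartilage to hypertrophic cartilage and bone were followed in the anterior nasal septum of embryonic day 14.5 (E14.5) mice: Ihh, Pthlh, Pth1r, Mef2c, Runx2, Runx3, Sp7, Col10a1, Panx3 and Alpl. They are a list of names with no threshold on a measured value, drawn up with earlier results of these data known, and all 10 were matched among the 38924 genes of the count files. The cartilage was cut out of frozen head sections by laser, and 1 RNA-seq library was made for each of 3 wild-type (WT) and 3 mutant embryos on a C57BL/6 background. The mutants, called Apert here, carried 1 Fgfr2 allele with the S252W change (Fgfr2+/S252W) together with EIIA-Cre, and they model Apert syndrome, a human craniosynostosis syndrome. EIIA-Cre is active from the early embryo in most tissues, so a difference in the septum need not start in cartilage cells. WT samples are labelled as WT without further alleles. At this stage 7 of the 10 genes were measured, meaning that the expression filter kept them. Ihh and Sp7 were below detection, with at most 3 counts in any library, and Alpl reached 4 counts in 1 library and was not kept by the filter. None of the 7 measured genes differed between the genotypes past the test, which 0.45% of all 13333 genes tested passed.

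Chondrocytes of a growing cartilage divide, then become prehypertrophic, then enlarge into hypertrophic cells whose matrix mineralizes. Prehypertrophic cells secrete Indian hedgehog (Ihh), which maintains parathyroid hormone-related protein (encoded by Pthlh), and that ligand acts through its receptor Pth1r to delay hypertrophy. The transcription factors Mef2c, Runx2 and Runx3 drive hypertrophy, Sp7 (osterix) acts below Runx2 in osteoblasts, Col10a1 and Panx3 are products of hypertrophic and prehypertrophic cells, and Alpl encodes the tissue-nonspecific alkaline phosphatase that permits mineralization. The nasal septum keeps much of its cartilage long after birth.

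The libraries held 6760510 to 10834744 counts. Levels are given as CPM, which is counts divided by the TMM-scaled library size (trimmed mean of M values) and multiplied by 1e6. A single count was worth 0.0869 to 0.162 CPM, and the detection floor of 3 counts lay at 0.261 to 0.487 CPM. Mitochondrial genes took 28.8% to 30.2% of counts in WT and 34.3% to 40.4% in Apert. The tissue label held: 20 cartilage markers summed to 38800 to 50000 CPM in WT and 40000 to 43300 CPM in Apert. The 10 osteoblast and bone markers summed to 1.09 to 3.82 CPM in WT and 0.65 to 3.41 CPM in Apert, with Bglap2, Dmp1, Ibsp, Mepe and Sost at 0 in all 6 libraries. The 16 perichondrium and fibrous mesenchyme markers, by contrast, summed to 3250 to 3830 CPM in WT and 4380 to 5100 CPM in Apert without overlap. The 10 neuron and glia markers also lay apart, in the other direction, at 162 to 216 CPM in WT and 116 to 152 CPM in Apert. The part of either list in the results below was not tested, nor was that of the mitochondrial share. In bulk tissue, fewer cells of a type and less RNA per cell cannot be told apart.

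**Figure D1:**
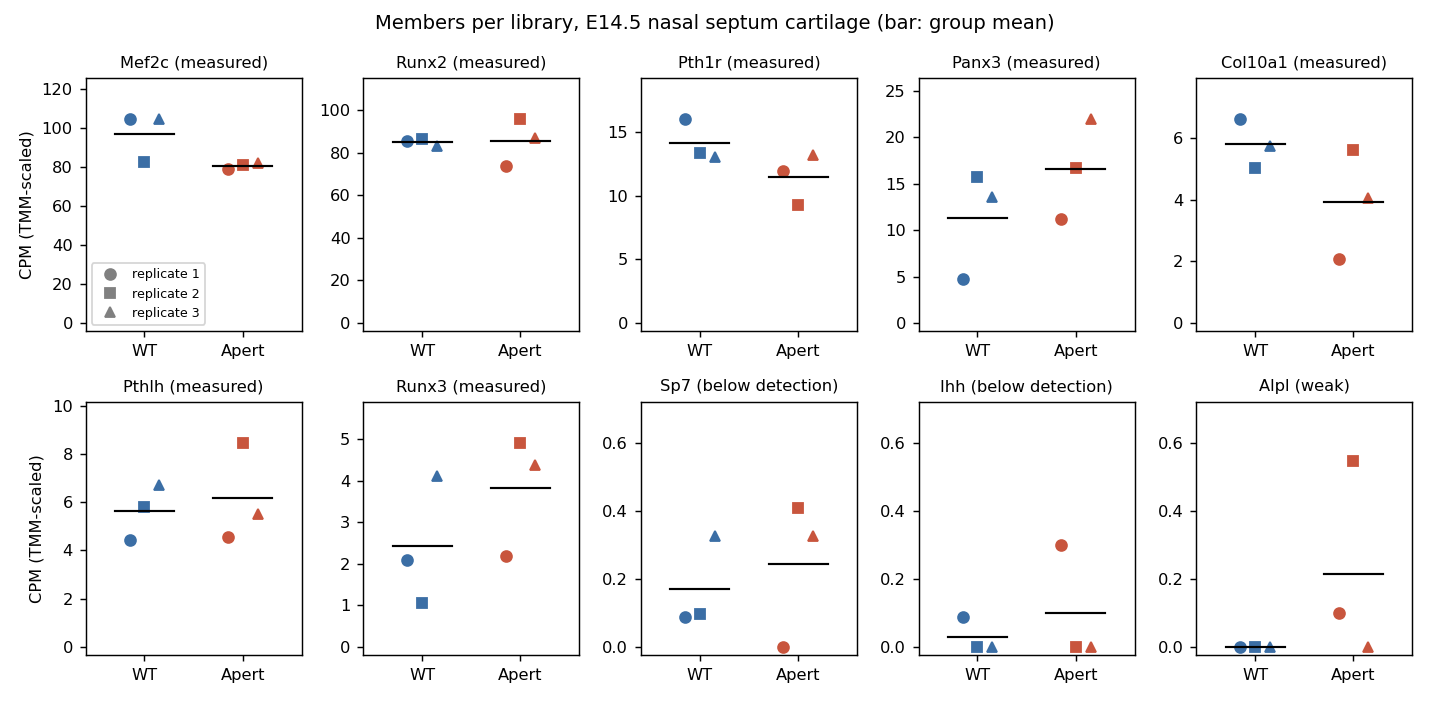
CPM (y axis, linear, a separate scale in each panel) of the 10 genes in WT (blue) and Apert (red) libraries, with 1 symbol per replicate number and a bar at the group mean. Mef2c is the only measured gene whose groups do not overlap, and the highest value among Sp7, Ihh and Alpl is 0.546 CPM.

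Per length, Mef2c was the highest of the 10 genes, and Sp7, Alpl and Ihh lay far below the 7 measured ones. Levels between genes are given as RPKM (CPM per kilobase of exon), averaged over all 6 libraries. Mef2c stood at 13.1 RPKM, Runx2 at 9.64, Panx3 at 5.25, Pth1r at 5.15, Pthlh at 3.69, Col10a1 at 1.55 and Runx3 at 0.625 RPKM. The median of the 13333 genes tested was 4.16 RPKM, so both leading transcription factors lay in the upper part of the distribution (Mef2c at percentile 80.6, Runx2 at 73.6) while Col10a1 was at percentile 23.1 and Runx3 at 7.94. Mef2c exceeded Runx2, Runx2 exceeded Panx3, Pthlh exceeded Col10a1 and Col10a1 exceeded Runx3 in 6 of 6 libraries, although the ranges of the last pair overlapped across libraries. Panx3 and Pth1r were not separable, since each was the higher in 3 of 6 libraries, and Pth1r exceeded Pthlh in 5 of 6. Sp7, Alpl and Ihh followed at 0.0713, 0.0267 and 0.0263 RPKM, levels made of 10, 5 and 4 counts over all libraries, so their order has no meaning.

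**Figure D2:**
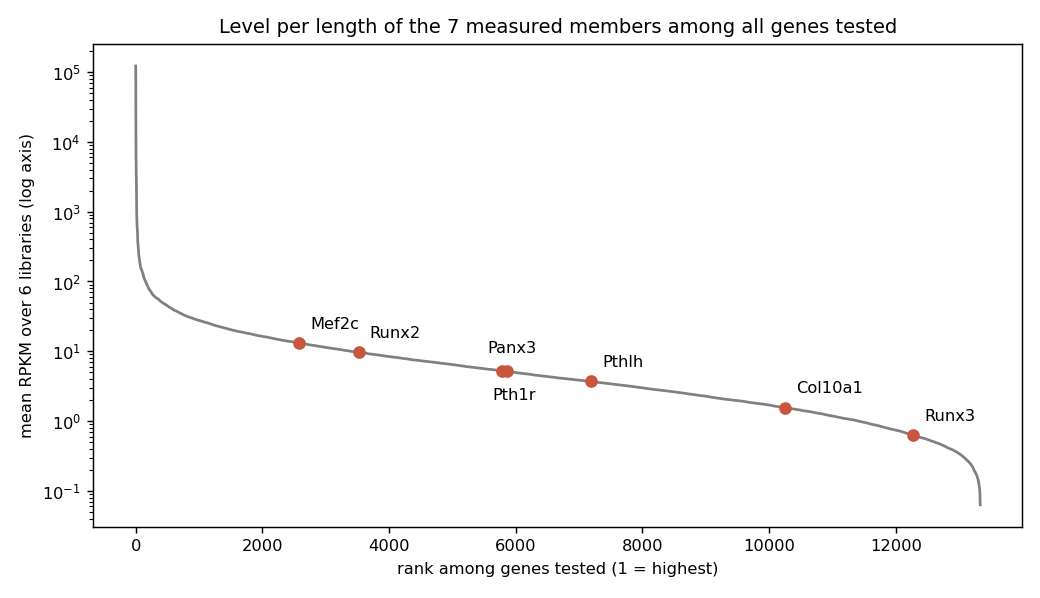
Mean RPKM over 6 libraries (y axis, log scale) against rank (x axis) for all genes tested (grey line), with the 7 measured genes as red points. Mef2c and Runx2 lie furthest above the median of 4.16 RPKM, and Panx3 and Pth1r lie closer above it. Pthlh, Col10a1 and Runx3 lie below it.

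The ligand and receptor of the PTHrP pathway were both present, but the hedgehog ligand that acts above them was not detected. Ihh had 1, 0 and 0 counts in WT replicates 1 to 3 and 3, 0 and 0 counts in Apert replicates 1 to 3. All 4 fragments thus came from 2 libraries, and neither library exceeded the floor, which for the 2443 bp of Ihh exon corresponds to 0.107 to 0.199 RPKM. Ihh (ENSMUSG00000006538) spans 74945319 to 74951651 of chromosome 1 (minus strand, mm10, as all positions here) and shares no exon with another gene.

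Pthlh, whose product is the signal that holds chondrocytes back from hypertrophy, was at 4.43, 5.80 and 6.73 CPM in WT replicates 1 to 3 and at 4.57, 8.46 and 5.52 CPM in Apert replicates 1 to 3. The groups overlapped, and Apert replicate 2 was the highest library. The means were 5.65 ± 1.16 and 6.19 ± 2.03 CPM (SD, n = 3 each), a log2 fold change (Apert minus WT) of 0.13 with a 95% interval of -0.65 to 0.91 (edgeR quasi-likelihood, adjusted p = 0.932). Its sign turned without WT replicate 1 (-0.02) or Apert replicate 2 (-0.18) and with libraries scaled by their totals alone (-0.02). Pthlh (ENSMUSG00000048776) spans 147252101 to 147264167 of chromosome 6 (minus strand).

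Pth1r, the G protein-coupled receptor for this ligand, was at 16.0, 13.3 and 13.0 CPM in WT and at 11.9, 9.28 and 13.2 CPM in Apert replicates 1 to 3. The highest Apert library lay above the lowest WT library, so the groups overlapped. Group means of 14.1 ± 1.63 and 11.5 ± 1.98 CPM (SD, n = 3 each) gave a log2 fold change of -0.30 (95% interval -0.84 to 0.24; edgeR adjusted p = 0.705). Its longest transcript has a GC content of 60.4%, against a median of 48.9% over the genes tested, and with an offset for GC content the log2 fold change was 0.02. Pth1r (ENSMUSG00000032492) spans 110722088 to 110743686 of chromosome 9 (minus strand). Per length the receptor stood 1.63-fold above its ligand in WT and 1.22-fold in Apert. These folds come from the mean log2 ratio within libraries, 0.703 ± 0.464 in WT and 0.291 ± 0.687 in Apert (SD, n = 3 each).

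Around this loop, a list of 18 receptors, transducers and targets was examined: 14 were measured, 2 were weakly counted and 2 were below detection. Of the 14, edgeR called none in either direction, where 0.45% of all genes tested were called, and the median log2 fold change was -0.28, against 0.01 over all genes. With scaling by library totals, which moved the median of all genes to -0.15, the list's median was -0.43. Values were negative for 11 members, and 3 had an unadjusted p below 0.05 in edgeR, against 11.4% of all genes tested. These 3 were the hedgehog receptor and target Ptch1 (WT 81.8 ± 25.3, Apert 52.9 ± 7.92 CPM; edgeR adjusted p = 0.221), the target and effector Gli1 (7.63 ± 4.63 and 3.67 ± 1.73 CPM; 0.401) and the effector Gli2 (101 ± 10.6 and 80.1 ± 9.03 CPM; SD, n = 3 each; 0.419). DESeq2, which gave an adjusted p for 10 of the 14, had 2 members with such a p (Gli2 and Ptch1). Limma-voom had 3 (Gli2, Kif7 and Ptch1), and neither tool called a member. Kif7, a ciliary regulator of Gli proteins, was at 5.32 ± 1.146 and 2.92 ± 0.978 CPM (SD, n = 3 each). Groups lay apart, lower in Apert, for Ptch1, Gli2, Kif7, Sik3 and Nkx3-2, where 7.7% of all genes tested did so. Without WT replicate 2, which held the highest Ptch1, Gli1 and Gli2 values, the list's median was -0.11, the log2 fold change of Ptch1 was -0.36 in place of -0.63, and no member had such a p. Without Apert replicate 1 the median was -0.32 and 6 members had such a p (Gli2, Gnas, Nkx3-2, Prkaca, Ptch1 and Smo). Without an expression filter Ptch1 was called (adjusted p = 0.0327). The receptor Pth2r had 1 count in 1 library, and the hormone gene Pth had none.

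The transcription factors divided into Mef2c and Runx2, with at least 505 counts in every library, Runx3, with 11 to 38, and Sp7, with at most 3. Mef2c, a MADS-box factor needed for hypertrophy, was at 104, 82.2 and 104 CPM in WT replicates 1 to 3 and at 78.8, 80.8 and 82.0 CPM in Apert replicates 1 to 3. All 3 Apert libraries lay below all 3 WT libraries, though WT replicate 2 exceeded the highest Apert library only narrowly. Groups lay apart in this direction for 7.7% of all genes tested, and Mef2c was the only one of the 7 measured genes that did so in either direction, where 16.6% of all genes did (8.92% with Apert higher). The means were 97.0 ± 12.8 and 80.6 ± 1.62 CPM (SD, n = 3 each), and the log2 fold change of -0.27 (95% interval -0.59 to 0.05) did not pass (edgeR adjusted p = 0.532, range over 19 alternatives 0.236 to 0.816). Mef2c (ENSMUSG00000005583) spans 83504034 to 83667079 of chromosome 13 (plus strand), and its value was -0.47 with an offset for GC content and -0.43 with library totals alone.

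Runx2, the RUNX factor required for bone formation and for hypertrophy, was nearly constant among WT embryos, at 85.4, 86.3 and 83.0 CPM in replicates 1 to 3. Apert replicates 1 to 3 were at 74.0, 95.8 and 86.9 CPM, on both sides of the WT values. Group means were 84.9 ± 1.70 and 85.6 ± 10.98 CPM (SD, n = 3 each). This left a log2 fold change of 0.01 and a 95% interval of -0.31 to 0.33 (edgeR adjusted p = 0.992), that is, a fold between 0.807 and 1.26. It had no stable sign, ranging from -0.15 with library totals alone to 0.07 without Apert replicate 1. Runx2 (ENSMUSG00000039153) spans 44495987 to 44814797 of chromosome 17 (minus strand). Of its exon length, 5.87% is shared with the antisense gene Runx2os1, which had 1 to 13 counts per library, and counting ignored strand, so fragments there cannot be assigned.

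Runx3, which overlaps with Runx2 in driving chondrocyte maturation, was far lower and far more variable. Its counts were 24, 11 and 38 in WT and 22, 36 and 27 in Apert replicates 1 to 3, or 2.09, 1.06 and 4.12 CPM against 2.19, 4.91 and 4.39 CPM. The groups overlapped, and the lowest value was that of WT replicate 2. In WT the coefficient of variation was 64.3%, where counting error alone would give 20.3%. The means were 2.42 ± 1.56 and 3.83 ± 1.45 CPM (SD, n = 3 each), a log2 fold change of 0.65 (95% interval -0.52 to 1.82; edgeR adjusted p = 0.709) that ran from 0.29 without WT replicate 2 to 1.26 without WT replicate 3. Runx3 (ENSMUSG00000070691) spans 135120652 to 135177990 of chromosome 4 (plus strand).

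Sp7, a zinc-finger factor that commits cells to the osteoblast lineage, had 1, 1 and 3 counts in WT and 0, 3 and 2 counts in Apert replicates 1 to 3. No library exceeded 3 counts, so Sp7 was below detection in both genotypes and no fold is given. Its 2906 bp of exon on the minus strand of chromosome 15 (102356609 to 102366325; ENSMUSG00000060284) put the floor at 0.0897 to 0.168 RPKM.

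Within the RUNX and MEF2 families, other paralogs were more abundant than Runx2, Runx3 and Mef2c. Runx1 was at 19.6 ± 1.80 RPKM in WT and 22.6 ± 2.71 RPKM in Apert, above Runx2 (9.61 ± 0.192 and 9.68 ± 1.24 RPKM) in every library, and Runx3 was at 0.485 ± 0.311 and 0.765 ± 0.289 RPKM (SD, n = 3 each). Runx2 thus made up 32.5% ± 2.38 of the summed RUNX level in WT and 29.3% ± 2.67 in Apert, and Runx3 1.62% ± 1.03 and 2.30% ± 0.789 (SD, n = 3 each). Their shared partner Cbfb, the subunit that stabilizes RUNX proteins on DNA, was at 154 ± 11.5 and 170 ± 27.5 CPM (SD, n = 3 each). Mef2a was at 24.0 ± 3.65 and 27.2 ± 2.40 RPKM, Mef2c at 14.4 ± 1.89 and 11.9 ± 0.239 RPKM and Mef2d at 11.5 ± 3.78 and 7.25 ± 0.794 RPKM (SD, n = 3 each). Mef2b had no count in any library.

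**Figure D3:**
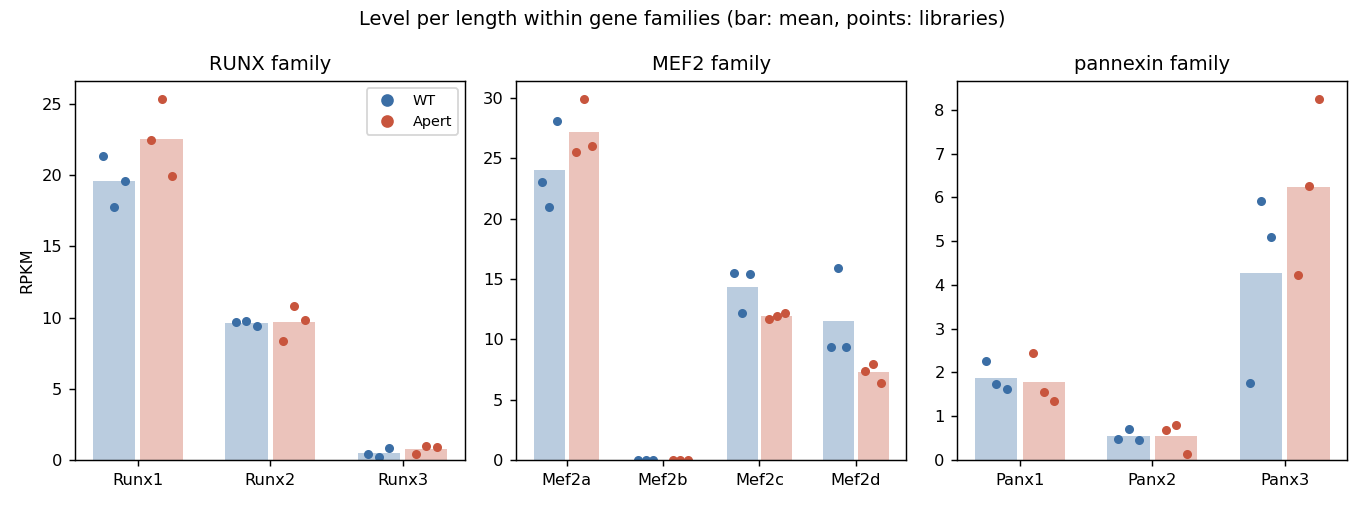
RPKM (y axis, linear from 0) of the RUNX, MEF2 and pannexin genes, with bars at the group means and points for single WT (blue) and Apert (red) libraries. Runx1 and Mef2a lead their families, Panx3 leads the pannexins in mean, and Mef2b is at 0 throughout.

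A list of 27 partners and paralogs of these factors had 21 measured members, none called by edgeR in either direction (0.45% of all genes tested), with a median log2 fold change of -0.02, and -0.18 with library totals. An unadjusted p below 0.05 was reached by 2 of them in edgeR, against 11.4% of all genes tested, and by 2 in limma-voom. DESeq2, which gave an adjusted p for 18 of the 21, had 3. Neither DESeq2 nor limma-voom called any. Mef2d averaged 69.1 ± 22.6 CPM over WT and 43.4 ± 4.75 CPM over Apert (SD, n = 3 each; edgeR adjusted p = 0.193), with its groups apart. Its log2 fold change of -0.67 was -0.37 without WT replicate 2, which stood well above the other libraries. Without that library no member of the list had an unadjusted p below 0.05, and without Apert replicate 2 there were 4 (Mef2d, Runx1t1, Sp3 and Wwtr1). Mef2d was called without an expression filter (adjusted p = 0.0249). The zinc-finger gene Sp3 was at 93.9 ± 7.79 and 120 ± 13.4 CPM, Zfp423 at 77.0 ± 7.39 and 62.1 ± 1.59 CPM and Runx1t1 at 104 ± 8.14 and 85.5 ± 8.59 CPM (SD, n = 3 each). Hdac4, the class IIa histone deacetylase that restrains Mef2c and Runx2 in chondrocytes, was at 20.1 ± 1.204 and 15.8 ± 4.03 CPM (SD, n = 3 each; edgeR adjusted p = 0.628). Dlx6 was below detection with at most 2 counts. Groups lay apart, lower in Apert, for Mef2d, Hdac4, Zfp423 and Runx1t1, where 7.7% of all genes tested did so. They lay apart with Apert higher for Sp3 and Wwtr1, where 8.92% of all genes tested did so.

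The upstream sequences of 4 of the genes are shown because they contrast the abundant factor Runx2 and its scarce paralog Runx3 with the weakly expressed Col10a1 and the undetected Ihh. Each is the 250 bases before a RefSeq start site (GRCm38.p6), 5′ to 3′ on the gene's strand, and capitals mark the RUNX motif TGTGGT or its reverse complement ACCACA, and TATAAA or TTTATA.
Runx2: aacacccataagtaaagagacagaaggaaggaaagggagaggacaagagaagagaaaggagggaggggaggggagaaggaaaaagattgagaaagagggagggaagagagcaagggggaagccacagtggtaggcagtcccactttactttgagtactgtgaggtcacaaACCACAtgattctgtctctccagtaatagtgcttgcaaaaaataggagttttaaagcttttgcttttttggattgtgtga
Runx3: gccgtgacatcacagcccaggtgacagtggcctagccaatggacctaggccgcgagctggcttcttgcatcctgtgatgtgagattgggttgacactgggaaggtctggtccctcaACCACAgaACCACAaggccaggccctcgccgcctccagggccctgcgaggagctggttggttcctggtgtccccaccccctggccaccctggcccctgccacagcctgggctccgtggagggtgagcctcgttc
Col10a1: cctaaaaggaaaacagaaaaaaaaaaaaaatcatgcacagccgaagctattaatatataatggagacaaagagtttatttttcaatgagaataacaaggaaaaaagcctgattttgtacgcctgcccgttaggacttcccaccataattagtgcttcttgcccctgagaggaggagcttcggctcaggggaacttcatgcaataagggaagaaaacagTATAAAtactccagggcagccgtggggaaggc
Ihh: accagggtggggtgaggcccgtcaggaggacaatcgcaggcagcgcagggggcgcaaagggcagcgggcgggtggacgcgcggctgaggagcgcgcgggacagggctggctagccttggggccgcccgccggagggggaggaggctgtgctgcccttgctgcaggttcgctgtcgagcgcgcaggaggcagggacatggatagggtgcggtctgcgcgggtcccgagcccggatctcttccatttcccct
These windows are chr17:44814628-44814877 on the minus strand for Runx2, chr4:135120395-135120644 on the plus strand for Runx3 (the upstream one of its 2 start sites), chr10:34389731-34389980 on the plus strand for Col10a1 and chr1:74951673-74951922 on the minus strand for Ihh. Of the 10 genes 8 had 14 such windows, and Sp7 and Panx3 had none. The RUNX motif was found in 2 of the 14, once in Runx2, beginning 80 bases before the start, and in 2 copies in Runx3, at 134 and 126 bases. It is present in 14% of 32851 promoter windows of this length. Col10a1 has TATAAA beginning 32 bases before the start (12.4% of windows hold this motif anywhere on either strand), with 5 CpG dinucleotides, while Ihh has 24 CpG, no TATAAA and no RUNX motif. Among windows not printed, TATAAA or TTTATA begins 107 and 22 bases before separate Mef2c start sites and 192 bases before an Alpl start site. Runx2 has no CpG in its window, and the median window has 6. The Runx3 window that is not printed has 38 CpG and no RUNX motif. The palindromic MEF2 motif, searched with its 4 central bases free and held by 3.2% of windows, was in none of the 14. A match is a string of letters and was not tested as a binding site.

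Hypertrophic products were present at low level for Col10a1, at moderate level for Panx3 and not reliably for Alpl. Col10a1 encodes type X collagen, the matrix collagen of hypertrophic zones. It had 76, 52 and 53 counts in WT and 21, 41 and 25 in Apert replicates 1 to 3, or 6.60, 5.03 and 5.75 CPM against 2.09, 5.59 and 4.06 CPM. Apert replicate 2 lay among the WT values, and Apert replicates 1 and 3 lay below them. The means were 5.79 ± 0.790 and 3.91 ± 1.76 CPM (SD, n = 3 each), and the log2 fold change of -0.58 (95% interval -1.46 to 0.30) did not pass (edgeR adjusted p = 0.652). It was -0.29 without Apert replicate 1 and -0.96 without Apert replicate 2. Against Col2a1, the main collagen of cartilage, Col10a1 was 1758-fold lower per length in WT and 2521-fold lower in Apert. These folds come from the mean log2 ratio within libraries, -10.78 ± 0.488 in WT and -11.3 ± 0.796 in Apert (SD, n = 3 each). Col10a1 (ENSMUSG00000039462) spans 34389981 to 34397085 of chromosome 10 (plus strand), and shares 18 bp of its exons with Nt5dc1, in whose span it sits.

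Panx3 encodes pannexin 3, a channel protein of prehypertrophic chondrocytes and osteoblasts. It was at 4.69, 15.8 and 13.6 CPM in WT and at 11.2, 16.7 and 21.9 CPM in Apert replicates 1 to 3. WT replicate 1 was less than any other library, and the other 2 WT libraries lay inside the Apert range. The means were 11.3 ± 5.86 and 16.6 ± 5.35 CPM (SD, n = 3 each), and the log2 fold change of 0.55 (95% interval -0.21 to 1.31; edgeR adjusted p = 0.607) ran from 0.17 when WT replicate 1 was left out to 0.86 when WT replicate 2 was. WT replicate 1 also had the lowest sum of perichondrium and fibrous markers, 3250 CPM, and the lowest cartilage sum, 38800 CPM. The part of either in its Panx3 value was not tested. Among WT libraries the coefficient of variation was 51.6%, where counting error alone would give 9.37%. Panx3 was 60.3% ± 18.4 of the summed pannexin level in WT and 71.6% ± 13.7 in Apert, ahead of Panx1 in 5 of 6 libraries. Panx3 (ENSMUSG00000011118) spans 37659902 to 37669222 of chromosome 9 (minus strand).

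Alpl had 0 counts in each WT library, where a true level of up to 3 counts cannot be told from none, and 1, 4 and 0 counts in Apert replicates 1 to 3. Only Apert replicate 2 exceeded the floor, by 1 count, so no fold is given. Under a floor of 10 counts Alpl joined Ihh and Sp7 below detection, which makes 3 of the 10 genes, and without Apert replicate 2 the same 3 were below the floor of 3 counts. Alpl (ENSMUSG00000028766) spans 137741733 to 137796384 of chromosome 4 (minus strand), with 4033 bp of exon.

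Later markers of hypertrophy and bone were divided in the same way. Of 28 genes on this list 16 were measured, 3 were weakly counted and 9 were below detection. Mmp13, the collagenase of terminal hypertrophic cells, and Ibsp, Bglap2, Dmp1, Mepe, Sost and Phospho1 had no count in any library, Spp1 had at most 3 and Bglap at most 1. Ifitm5, also on the bone marker list, was measured, with 1 to 32 counts a library. It stood at 2.12 ± 1.57 RPKM in WT and 2.04 ± 1.57 RPKM in Apert (SD, n = 3 each). Mmp9 was measured too, with 0 to 31 counts a library. Genes with wider roles were abundant, among them Sparc (739 ± 123 CPM in WT, 624 ± 73.7 CPM in Apert), the pyrophosphate-generating Enpp1 (154 ± 29.2 and 166 ± 7.07 CPM) and the calcification inhibitor Mgp (30.1 ± 15.6 and 42.2 ± 6.44 CPM; SD, n = 3 each). EdgeR called none of the 16 in either direction (0.45% of all genes tested). An unadjusted p below 0.05 was reached by 2, against 11.4% of all genes tested. The median log2 fold change was -0.03. It was -0.18 with library totals, -0.28 without Apert replicate 1 and 0.09 without Apert replicate 3. DESeq2, which gave an adjusted p for 12 of the 16, called none, and 1 member had an unadjusted p below 0.05. Limma-voom called none, and 4 members had such a p. Col1a1, a type I collagen chain of bone and fibrous tissue, averaged 140 ± 67.2 CPM over WT and 251 ± 61.3 CPM over Apert (SD, n = 3 each; edgeR adjusted p = 0.165). Leaving out WT replicate 2 (adjusted p = 0.0167, log2 fold change 1.30), leaving out Apert replicate 1 (0.0319), omitting the expression filter (1.22e-04) or using limma-voom with quality weights (0.0225) each made it a call. Col1a1 is also one of the perichondrium and fibrous markers, whose sum was higher in every Apert library. Cd200, a surface glycoprotein, was at 26.8 ± 3.61 and 15.6 ± 3.996 CPM (SD, n = 3 each, edgeR adjusted p = 0.169). The phosphate transporter Slc20a2 and the annexin Anxa6 were at 60.2 ± 3.14 against 49.7 ± 3.28 CPM and 97.7 ± 13.5 against 81.7 ± 3.42 CPM (SD, n = 3 each). Groups lay apart, lower in Apert, for Cd200, Slc20a1, Slc20a2 and Anxa6, where 7.7% of all genes tested did so.

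Across the 7 measured genes edgeR called none, and none had an unadjusted p below 0.05, where 0.45% of all genes tested were called and 11.4% had such a p. The 53 genes called higher were 0.398% and the 7 called lower 0.0525% of those tested. DESeq2, which gave an adjusted p for 4 of the 7, and limma-voom also called none and gave no unadjusted p below 0.05. In other edgeR fits an unadjusted p below 0.05 was reached by Mef2c with library totals alone or the GC offset, and by Panx3 with the replicate block. Without WT replicate 2 both Mef2c and Panx3 reached it. None of these fits called either gene. Log2 fold changes were negative for 3 (Col10a1, Pth1r and Mef2c) and positive for 4 (Runx3, Panx3, Pthlh and Runx2), with a median of 0.01, beside 0.01 over all genes tested. Their median absolute value was 0.30, against 0.25 over all genes. With scaling by library totals alone Pthlh and Runx2 turned negative. The 95% intervals bound what could have been missed: they reach a fold of 0.665 for Mef2c and 0.362 for Col10a1 on the lower side, and of 2.47 for Panx3 and 3.54 for Runx3 on the upper side. A p that misses the threshold does not show that the genotypes were alike.

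**Figure D4:**
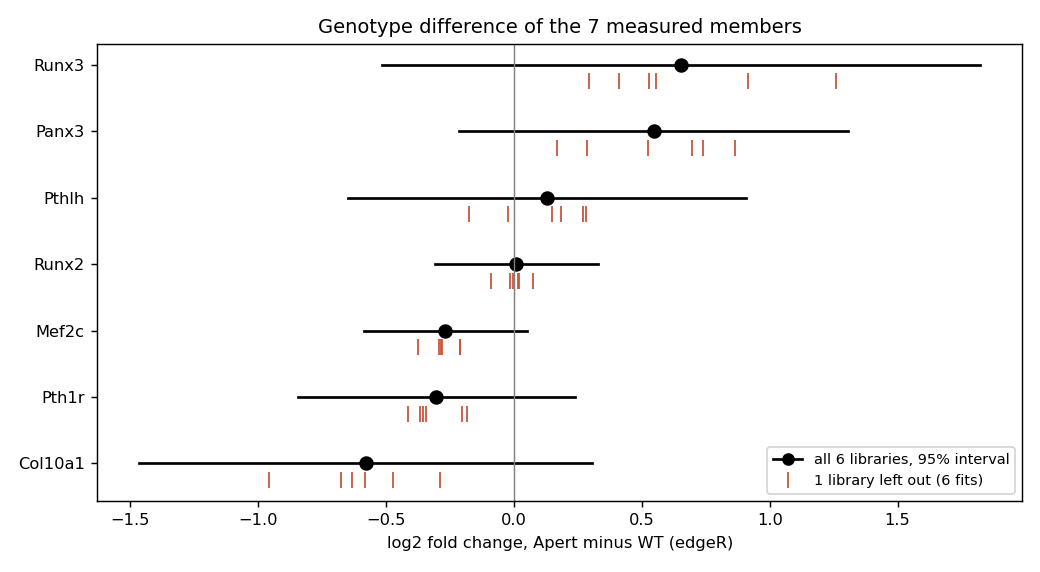
Log2 fold change (x axis, Apert minus WT, edgeR) of the 7 measured genes, with black points and lines for the estimate and 95% interval from all 6 libraries and red ticks for the 6 fits that each leave out 1 library. Every interval crosses 0, those of Runx2 and Mef2c are the narrowest, and the red ticks of Runx2 and Pthlh fall on both sides of 0.

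Ratios between genes within a library do not depend on scaling, and 4 of them could be formed. The log2 ratio of Runx3 to Runx2 per length was -4.54, -5.52 and -3.51 in WT and -4.26, -3.46 and -3.49 in Apert replicates 1 to 3, a difference of 0.79 (two-sided exact permutation p = 0.2, adjusted p = 0.4) that ran from 0.29 (leaving out WT replicate 2) to 1.29 (leaving out WT replicate 3). Runx2 to Sox9, a transcription factor among the cartilage markers, was at -4.41, -4.31 and -4.04 in WT and -4.16, -3.42 and -3.06 in Apert. Here Apert replicate 1 lay among the WT values and the other Apert libraries lay above, a difference of 0.70 (exact permutation p = 0.2, adjusted p = 0.4) that was 0.46 without Apert replicate 3 and 1.01 without Apert replicate 1. In this ratio Runx2 was level between the groups, and Sox9 averaged 762 ± 109 CPM over WT and 480 ± 140 CPM over Apert (SD, n = 3 each; edgeR adjusted p = 0.125). Pth1r to Pthlh and Col10a1 to Col2a1 differed by -0.41 (exact permutation p = 0.6, adjusted p = 0.6) and -0.52 (p = 0.5, adjusted p = 0.6). With 1 library left out the former ran from -0.64 (without Apert replicate 1) to -0.02 (without Apert replicate 2), and the latter from -0.88 (without Apert replicate 2) to -0.09 (without Apert replicate 1). With 3 against 3 libraries the smallest p this test can give is 0.1, so none could pass. Ratios with Ihh or Alpl were not formed because those genes were not measured.

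Among 7157 genes with a mean of at least 10 CPM, those whose log2 CPM followed Mef2c most closely over the 6 libraries were Mmachc (Pearson r = 0.998), Rnf40 (0.991) and Tti2 (0.987). For Runx2 they were Ripor1 (r = 0.988), Epg5 (0.974) and Senp3 (0.973), and for Panx3 they were Eml1 (r = 0.994), Tbc1d1 (0.986) and Casp8 (0.985). Over 6 libraries that differ in depth and composition such values are a description only: 28 genes exceeded r = 0.9 with Mef2c, 68 with Runx2 and 87 with Panx3.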

How the data were processed

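RNA of laser-captured cartilage was purified with DNase digestion, 15 ng per sample was amplified to cDNA (NuGEN Ovation) and tagged with Nextera XT, and pairs of 100 bp reads were sequenced, per the labels' protocols. Amplification from little RNA adds spread to weakly expressed genes, and no molecular identifiers were described, so floors cover counting error only. The deposited values are whole-number fragment counts per gene, made by the authors with featureCounts 1.4.4 over exons without regard to strand on Ensembl release 75 models of GRCm38, per the file headers. The submitters' processing notes also name cutadapt, STAR 2.5.2b and mm10, without settings. The design text names 3 mice per genotype as the sources. Symbols were matched by identifier for 37607 of 38924 genes, and the unmatched genes stayed in the totals. No per-sample column was left unused (0).

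The genotype test was edgeR 4.0.16 under R 4.3.3 (filterByExpr, TMM, glmQLFit and glmQLFTest, Benjamini-Hochberg over 13333 genes, threshold 0.05). Standard errors are the log2 fold change over the square root of F, and 95% intervals use the fit's total degrees of freedom. The fit was tested on simulated data. A gene is measured if the filter kept it, below detection at 3 counts or fewer in every library, and weak otherwise. Ratios used two-sided exact permutation tests. Alternatives were other scalings, filters and tools (DESeq2 1.42.0, limma 3.58.1), a replicate block, removal of mitochondrial and globin genes, thinned counts, GC and length offsets (mgcv 1.9.3, GENCODE M21 transcripts, 13192 of the genes tested), and each library left out with the filter rerun. The 10 genes and the lists were chosen with earlier results of these data known. Named from lists were called genes, otherwise at most 4 with the smallest p, and those at the floor. Cbfb, Hdac4, Enpp1, Mgp, Sparc, Ifitm5, Mmp9, Runx1 and Mef2a were named after their values were seen, as were the promoters printed. The rule for genes most like a member took the 3 with the highest r for the 3 measured members of highest RPKM.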

Additional observations from a re-analysis of the deposited data

How the results depend on the processing

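The 7 measured genes kept their side of the threshold in each of the 19 alternatives that gave them an adjusted p (DESeq2 gave none for Col10a1, Pthlh and Runx3). Signs held for Col10a1, Mef2c, Runx3 and Panx3. The log2 fold change of Runx2 was -5.73e-04 with RLE scaling, -0.1456 with library totals, -0.01561 with upper quartile scaling, -0.01799 with no filter, -0.005902 with DESeq2, -0.007088 with limma-voom and -0.01176 with a length offset, and -0.09061 to 0.07421 with 1 library left out. Pthlh was at -0.02308 with library totals and -0.1762 to 0.2834 with 1 library left out, and Pth1r at 0.02151 with the GC offset. The 60 called genes of the whole table became 247 with no filter, 195 by DESeq2, 104 by limma-voom with quality weights, 5 with the GC offset and 0 (without WT replicate 3; 1376 at an unadjusted p below 0.05 in edgeR) to 229 (without Apert replicate 1) with 1 library left out; the cause was not tested. Library totals gave 17 higher and 24 lower. The labels do not say that same-numbered libraries belong together, so the numbers were not taken as pairs. Same-numbered libraries deviated together with r of 0.194, 0.0196 and 0.086. WT replicates 1 and 3 correlated best with the Apert library of the same number, and WT replicate 2 with Apert replicate 3 (0.0418). Such small values cannot decide whether the numbers are pairs. The replicate block gave 172 calls, none among the 7 (Panx3 had an unadjusted p below 0.05 in edgeR). Among the listed genes it called Col1a1 (edgeR adjusted p = 0.00692). Removing mitochondrial and globin genes raised RPKM values (Mef2c 19.8, Col10a1 2.33). Runx3 had the fewest counts of the measured genes, 11 to 38 a library, and counting error accounts for a coefficient of variation of 20.3% in WT and 18.8% in Apert, below the 64.3% and 37.8% observed.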
